A study of Mus musculus with 2 samples.

Results

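The replication-dependent histone genes were examined in ESREs (Extensively Self Renewing Erythroblasts), mouse red cell precursors that can be grown in culture for long periods. Genes were taken by symbol, Hist followed by a cluster number from 1 to 4 and the histone type, which gave 65 of the 25791 gene rows in the deposited table. ESREs after 1 day of maturation were compared with ESREs in expansion, which were still proliferating. Both groups had a C57/bl6 genetic background, and the series title speaks of ESREs from transgenic β-Yac mice, but the labels do not say whether these samples carry the transgene. The series text speaks of duplicates, but the table holds 1 FPKM value per gene and group (fragments mapped, scaled by transcript length and by library total), so no error, n or p-value can be given and none of the differences was checked in replicates. Whether that value pools the duplicates, and how deeply the libraries were sequenced, is not given.

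Histones package DNA. H2A, H2B, H3 and H4 form the nucleosome core and H1 binds the linker DNA between cores. Replication-dependent histone genes lie in clusters without introns in their standard form, are transcribed mainly in S phase, and give mRNAs that end in a conserved stem-loop in place of a poly(A) tail. The stem-loop binding protein SLBP and the U7 small nuclear ribonucleoprotein act at this end, and the mRNAs are degraded when DNA synthesis stops. Maturing mammalian erythroblasts pass through a limited number of divisions, condense their chromatin and finally expel the nucleus.

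By type the 65 rows comprised 6 H1, 18 H2A, 17 H2B, 12 H3 and 12 H4 rows. The Hist1 cluster on chromosome 13 held 51 of them, the Hist2 cluster on chromosome 3 held 10, the Hist3 cluster on chromosome 11 held 3, and Hist4h4 lies alone on chromosome 6. The rule also takes in the testis histones Hist1h1t, Hist1h2aa and Hist1h2ba. Hist1h2al, which starts at base 51295453 of chromosome 13 (mm9), away from the other Hist1 rows, is a processed pseudogene in GENCODE, and RefSeq names the Hist3h2bb row as a pseudogene.

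The stem-loop is shown because it sets these mRNAs apart from other mRNAs. It was searched within 100 bases after the stop codon in GENCODE M21 transcripts (GRCm38). Of the 47 members with at least 40 annotated bases there, 44 held it (93.6%), against 5 of 19186 other protein-coding genes (0.0261%). It began between base 22 and base 59 after the stop codon, with a median of base 32. The sequences below read 5′ to 3′ as DNA, and the capitals mark the 16 bases of the stem-loop.
Hist1h1c: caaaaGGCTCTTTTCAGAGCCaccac
Hist1h2ag: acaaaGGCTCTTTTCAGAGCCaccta
Hist1h2bk: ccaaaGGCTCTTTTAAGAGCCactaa
Hist1h3g: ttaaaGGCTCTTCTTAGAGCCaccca
Hist1h4b: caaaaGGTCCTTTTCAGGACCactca
Hist1h4f: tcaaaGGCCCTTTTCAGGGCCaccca
The first 5 bases of the stem were GGCTC in every H1, H2A, H2B and H3 member with a match, which were 4, 10, 10 and 9 genes. In the 11 H4 members with a match they were GGCCC in 9 and GGTCC in 2. The 3 members searched without a match were Hist1h1a, Hist1h2bc and Hist2h2be, which says only that this pattern is not within that window of the transcript used.

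Promoters are shown for the genes with the highest maturation FPKM among the H1, H2B, H3 and H4 rows, as an example of each of these types. Each window runs from 250 bases before to 50 bases after the RefSeq start on GRCm38.p6. Hist1h1b lies at chr13:21780576-21780875 on the minus strand, Hist1h2bk at chr13:22035571-22035870 on the plus strand, Hist1h3d at chr13:23575513-23575812 on the plus strand and Hist1h4k at chr13:21750504-21750803 on the minus strand. The capitals mark matches on either strand to the 6 motifs searched, which were the octamer ATTTGCAT of H2B promoters, the CCAAT box, the TATA box as TATAAA, the H1 box AAACACA, the H4 site II core GGTCCG and the E2F-like motif TTTNNCGC.
Hist1h1b: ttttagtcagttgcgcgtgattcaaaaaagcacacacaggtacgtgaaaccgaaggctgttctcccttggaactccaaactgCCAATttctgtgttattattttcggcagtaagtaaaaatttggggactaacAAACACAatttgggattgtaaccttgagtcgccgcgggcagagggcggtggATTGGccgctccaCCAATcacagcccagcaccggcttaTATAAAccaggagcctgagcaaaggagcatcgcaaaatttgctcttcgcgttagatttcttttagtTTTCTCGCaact
Hist1h2bk: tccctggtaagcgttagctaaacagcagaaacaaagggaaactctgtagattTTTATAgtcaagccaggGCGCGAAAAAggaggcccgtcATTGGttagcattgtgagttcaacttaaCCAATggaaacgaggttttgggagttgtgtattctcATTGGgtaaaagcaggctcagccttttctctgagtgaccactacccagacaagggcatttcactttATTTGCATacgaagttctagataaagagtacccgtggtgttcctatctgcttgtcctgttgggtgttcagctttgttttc
Hist1h3d: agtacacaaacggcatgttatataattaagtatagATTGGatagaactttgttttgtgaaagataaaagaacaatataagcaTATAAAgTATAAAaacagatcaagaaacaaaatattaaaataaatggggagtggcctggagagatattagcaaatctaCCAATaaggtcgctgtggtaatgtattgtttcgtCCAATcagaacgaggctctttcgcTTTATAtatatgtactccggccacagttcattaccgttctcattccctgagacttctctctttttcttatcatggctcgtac
Hist1h4k: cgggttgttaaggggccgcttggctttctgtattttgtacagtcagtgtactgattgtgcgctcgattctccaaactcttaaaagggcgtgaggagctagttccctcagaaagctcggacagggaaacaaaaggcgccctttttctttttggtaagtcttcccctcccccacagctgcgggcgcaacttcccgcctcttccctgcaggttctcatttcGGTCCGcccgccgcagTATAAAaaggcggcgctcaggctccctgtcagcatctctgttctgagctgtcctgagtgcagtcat
Promoter windows were given for 58 of the 65 genes, in 59 windows. CCAAT stood in 51 of the 59 windows (86.4%), against 37.4% of all 32851 promoter windows, and was found in every H1, H2A, H2B and H3 window but in 3 of 11 H4 windows. GGTCCG stood in 10 of 11 H4 windows, in 1 H2B window and in 1 H3 window, against 8.25% of all windows. AAACACA stood in 5 of 6 H1, 2 of 17 H2A and 2 of 15 H2B windows and in no H3 or H4 window, against 7.18% of all windows. The octamer stood in 7 of 15 H2B and 7 of 17 H2A windows and in no H1, H3 or H4 window, against 1.74% of all windows. Windows of neighbouring H2A and H2B genes can overlap, so these are not all separate matches. TATAAA stood in 34 of the 59 member windows (57.6%, against 13.6% of all), and TTTNNCGC in 16 (27.1%, against 5.17%). A match describes the letters only and overlaps between motifs were not removed.

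All 65 histone rows had a higher FPKM in maturation than in expansion, and all reached 1 FPKM in at least 1 group. With a log2 ratio of FPKM + 1 of at least 1 read as at least 2-fold higher, 59 of the 65 were higher and none was lower. Among all 9263 rows that reached 1 FPKM in a group, 3.13% were higher and 6.7% lower by the same rule. Relative to the median of all these rows, 61 histone rows were at least 2-fold higher and none lower, beside 4.53% and 3.92% of all rows. The median log2 ratio was 1.86 over the histone rows and -0.25 over all 9263 rows. Their summed FPKM was 13146 in maturation and 3160 in expansion. They held 3.15% of the summed FPKM of the table in maturation and 0.769% in expansion, or 4.23% and 0.933% once small RNA rows were left out of the total. In bulk samples, more cells in S phase and more histone mRNA per cell cannot be told apart.

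**Figure D1:**
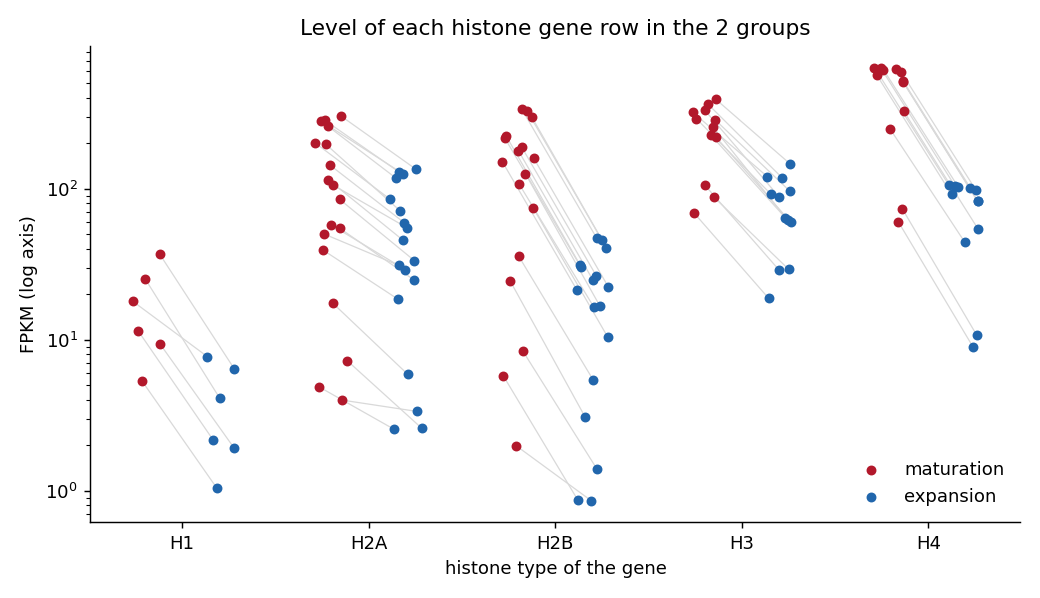
FPKM of each histone gene row (log axis) in maturation (red) and expansion (blue), by histone type, with a line joining the 2 values of a gene. Every line falls toward expansion, and the lines of H4 and of all H2B genes but Hist2h2be span a larger fold than those of H2A and H3.

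The size of the difference followed the histone type. Summed over rows, H2B was 7.12-fold higher (2464 FPKM in maturation and 346 in expansion) and H4 6.08-fold higher (5399.9 and 888 FPKM). H1 was 4.55-fold higher (106 and 23.4 FPKM), H3 3.20-fold higher (2959 and 925 FPKM) and H2A 2.27-fold higher (2217 and 977 FPKM). The folds of single rows lay between 5.61 and 6.91 for the 12 H4 rows and between 2.68 and 4.15 for the 12 H3 rows. They were wider apart in the other types, at 2.33 to 6.18 for H1, 1.19 to 2.95 for H2A and 2.30 to 7.89 for H2B. H4 folds therefore lay above all H3 folds and all H2A folds, while the H3 and H2A ranges overlapped.

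The makeup of the core histone RNA differed between the groups. H4 rows held 41.4% of the summed core histone FPKM in maturation and 28.3% in expansion, H3 rows 22.7% and 29.5%, H2B rows 18.9% and 11.0%, and H2A rows 17.0% and 31.2%. H4 led in maturation and H2A in expansion. The H2B sum was 1.11 times the H2A sum in maturation and 0.354 times in expansion, and the H4 sum was 1.83 times the H3 sum in maturation and 0.96 times in expansion. FPKM of rows this short depends strongly on the modelled transcript length, so the order of types within a group is uncertain. How far the fold of a type between groups depends on it was not tested.

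**Figure D2:**
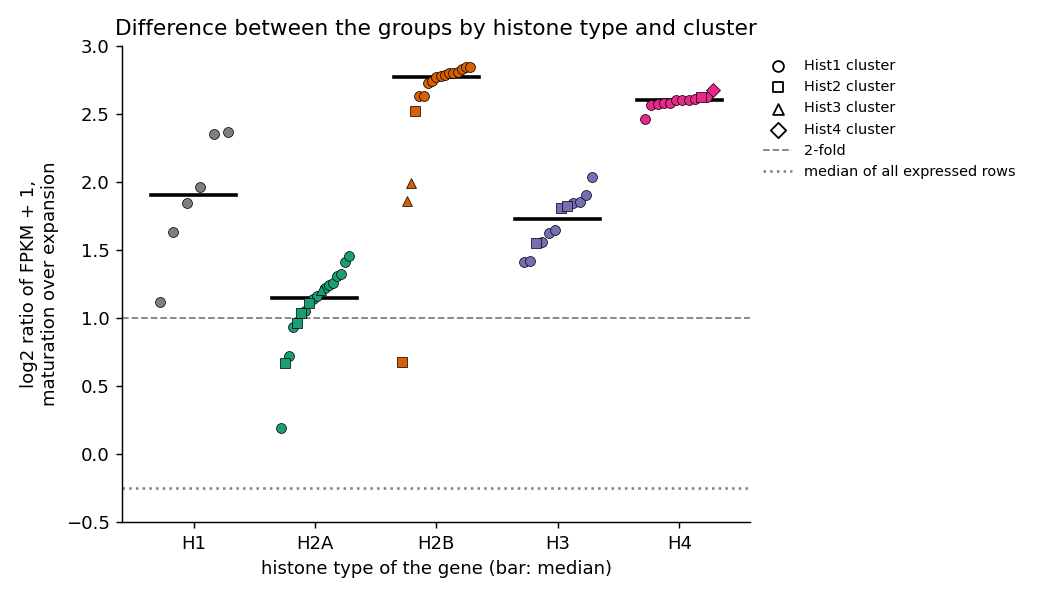
Log2 ratio of FPKM + 1 (maturation over expansion) of each histone gene row by type, with the cluster as symbol, the median of the type as a bar, 2-fold as a dashed line and the median of all expressed rows as a dotted line. H4 rows sit between 2.46 and 2.68, 16 of 17 H2B rows lie above 2-fold and 5 of 18 H2A rows lie below it.

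H1 rows, which encode the linker histones, had low FPKM values and a median log2 ratio of 1.90. Hist1h1b (mm9 chromosome 13, 21871752 to 21872423) had the highest H1 level, at 36.8 FPKM in maturation and 6.40 in expansion, a 5.75-fold difference. Hist1h1a had the largest log2 ratio of the type, 2.37, with 25.4 FPKM in maturation and 4.11 in expansion. Both carry no 50-base coding window found in another member. Hist1h1c had the smallest ratio of the type, 1.12, with 18.0 FPKM in maturation and 7.74 in expansion, and was the highest H1 row in expansion. Hist1h1t, the testis linker histone, had 5.33 FPKM in maturation and 1.04 in expansion, a log2 ratio of 1.63. Hist1h1d and Hist1h1e lay between, with log2 ratios of 1.84 and 1.96.

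H2A rows differed least. Their median log2 ratio was 1.15, and 13 of 18 were at least 2-fold higher. Hist1h2ah had the highest level, at 304 FPKM in maturation and 135 in expansion, a 2.24-fold difference. Hist1h2ag had the largest ratio, 1.46, with 198 FPKM in maturation and 71.5 in expansion, followed by Hist1h2ac at 1.41, with 17.5 and 5.93 FPKM. Hist1h2aa, the testis H2A, had the smallest, 0.20, with 3.99 FPKM in maturation and 3.36 in expansion, and Hist2h2ab came next at 0.67, with 50.3 and 31.2 FPKM. The rows nearest to 2-fold were Hist2h2aa1 just above it, at 39.2 FPKM in maturation and 18.6 in expansion (log2 ratio 1.04), and Hist2h2ac just below it, at 57.8 and 29.1 FPKM (0.97). The other rows below it were Hist1h2af (0.94) and the pseudogene row Hist1h2al (0.72).

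H2B rows differed most, with a median log2 ratio of 2.77. Hist1h2bn (mm9 chromosome 13, 21845992 to 21846372) had 299 FPKM in maturation and 40.7 in expansion, a log2 ratio of 2.85, and Hist1h2bb had 126 and 16.7 FPKM, a ratio of 2.84. These are the largest log2 ratios of FPKM + 1 among all 65 rows, whereas by plain fold Hist1h2be came first at 7.89, with 24.4 FPKM in maturation and 3.10 in expansion, before Hist1h2bb at 7.55 and Hist1h2bn at 7.34. Both genes had been named beforehand as marks of the group from earlier results of these data. Hist1h2bk had the highest H2B level, at 335 FPKM in maturation and 47.3 in expansion, a 7.10-fold difference. All 13 H2B rows of the Hist1 cluster had folds between 6.51 and that of Hist1h2be. Among them was Hist1h2ba, the testis H2B, at 74.4 FPKM in maturation and 10.4 in expansion. It has 38.2% of its 50-base coding windows in other members, so this level may hold reads of other genes.

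H2B rows outside the range of the Hist1 cluster were Hist2h2be and, just below it, Hist3h2bb at 8.48 FPKM in maturation and 1.39 in expansion, a 6.12-fold difference. Hist2h2be had 1.98 FPKM in maturation and 0.862 in expansion, a 2.30-fold difference and a log2 ratio of 0.68, whereas its cluster neighbour Hist2h2bb had 35.7 and 5.39 FPKM, a 6.62-fold difference. Hist3h2ba, with the next smallest H2B log2 ratio, 1.86, had 5.80 FPKM in maturation and 0.87 in expansion. Its fold of 6.67 was close to that of the Hist1 rows, and the pseudocount of 1 lowers the log2 ratio of such low rows.

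H3 rows had a median log2 ratio of 1.73, and all 12 were at least 2-fold higher. Hist1h3d had the highest level in both groups, at 392 FPKM in maturation and 146 in expansion, and the smallest ratio of the type but for that of Hist1h3h, 1.42. Hist1h3h was at 1.41, with 323 FPKM in maturation and 121 in expansion. Hist1h3g and Hist1h3e had the largest, at 257 FPKM in maturation and 62.1 in expansion (2.03), and at 332 and 88.1 FPKM (1.90). The 3 H3 rows of the Hist2 cluster had ratios from 1.56 to 1.82, within the span of 1.41 to 2.03 of the 9 Hist1 rows.

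H4 rows had the narrowest range of log2 ratios of the 5 types. All 12 were at least 2-fold higher, with log2 ratios from 2.46 to 2.68 and a median of 2.60. Hist1h4k (mm9 chromosome 13, 21842063 to 21842374) had the highest level of all 65 rows in maturation, at 635 FPKM against 106 in expansion. Hist1h4i had the smallest ratio, with 249.6 FPKM in maturation and 44.5 in expansion, and Hist1h4j came next at 2.56, with 616 and 103 FPKM. Hist4h4, alone on chromosome 6 (mm9, 136752589 to 136752900), had the largest, with 73.9 FPKM in maturation and 10.7 in expansion, a 6.91-fold difference. Hist1h4d followed at 2.63, with 515 FPKM in maturation and 82.7 in expansion. H2afj, a replacement H2A gene 3868 bases from Hist4h4, had 16.3 FPKM in maturation and 18.98 in expansion. It so stood slightly lower where Hist4h4 stood higher.

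Cluster values are given within each type, since the clusters hold different types. H2A rows had a median fold of 2.35 in Hist1 and 2.05 in Hist2, and the H2A row of Hist3, Hist3h2a, was 2.81-fold higher. H2B rows had a median fold of 7.14 in Hist1, 4.46 over the 2 rows of Hist2 and 6.39 over the 2 rows of Hist3. The Hist2 value lies between Hist2h2bb at 6.62 and the low row Hist2h2be at 2.30. Summed over both Hist2 rows the H2B fold was 6.02. H3 rows had median log2 ratios of 1.65 in Hist1 and 1.81 in Hist2. The H4 rows of Hist1 had a median log2 ratio of 2.59, Hist2h4 was at 2.62 and Hist4h4 at 2.68. H4 levels differed more than H4 ratios between clusters, as the median H4 level of Hist1 was 580.1 FPKM in maturation and 95.2 in expansion, against 60.4 and 8.98 FPKM for Hist2h4.

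Many H2A and H2B genes lie head to head, with a promoter region between them that is read in both directions. In GENCODE, 10 such pairs had starts 176 to 306 bases apart on opposite strands, and where both had a RefSeq promoter window the windows shared 220 to 279 bases. In 9 of the 10 pairs the H2B gene had the larger log2 ratio, or in 10 with a pseudocount of 0.1, and the median difference, H2B minus H2A, was 1.60. Hist1h2bk had 335 FPKM in maturation and 47.3 in expansion, while Hist1h2ah, on the other strand of the Hist1h2bk promoter printed above, had 304 and 135 FPKM. By these values the H2B gene stood above its partner in maturation and below it in expansion. Of the 50-base coding windows of Hist1h2bk and Hist1h2ah, 95.2% and 95.6% occur in other members. Their values may thus hold reads of other genes, which was not tested. The H2B level was above the H2A level in 8 pairs in maturation and in 2 pairs in expansion. The pair of testis genes had the largest difference, 2.53, with Hist1h2ba at 7.18-fold and Hist1h2aa at 1.19-fold. Other members hold 38.2% of the 50-base coding windows of Hist1h2ba and 2.35% of those of Hist1h2aa. The Hist1h2ba value may thus hold reads of other H2B genes, which was not tested. The exception was Hist2h2be with Hist2h2ac, at -0.29. Its direction depends on the pseudocount, as the plain folds were 2.30 for Hist2h2be and 1.99 for Hist2h2ac.

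**Figure D3:**
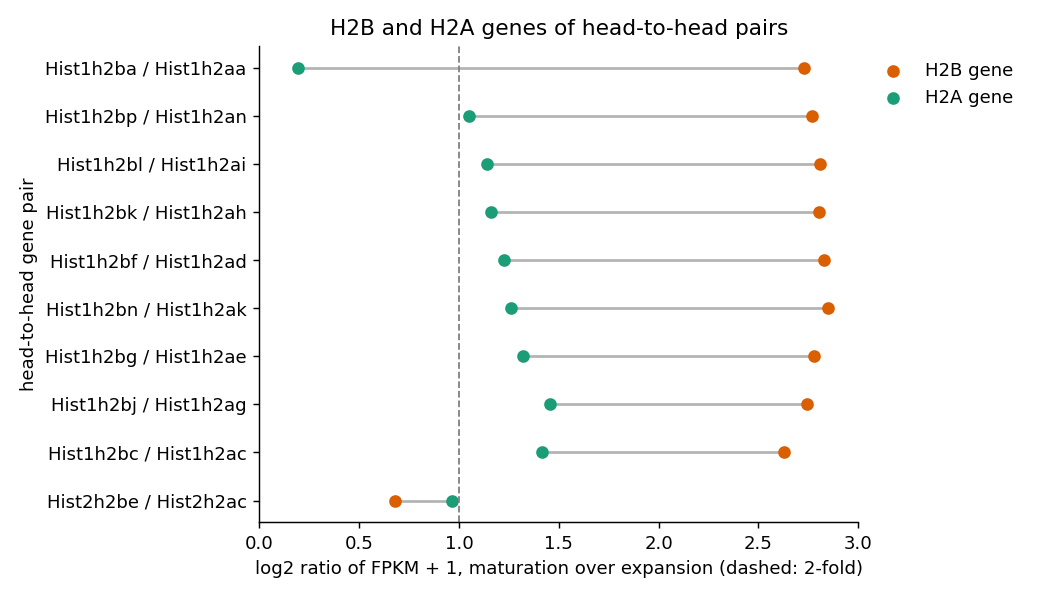
Log2 ratio of FPKM + 1 (maturation over expansion) of the H2B gene (orange) and the H2A gene (green) in each of 10 head-to-head pairs, with 2-fold as a dashed line. The H2B point lies to the right in 9 pairs, between 2.63 and 2.85, and to the left in the Hist2h2be and Hist2h2ac pair, which turns with a pseudocount of 0.1.

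Copies of a histone type are so alike that a read can match several rows, and how such reads were divided is not stated in the labels. Of the 63 members with a GENCODE coding sequence, 6 had every 50-base window of it in at least 1 other member, and 13 had at least 90%. The median share was 82% for H2A, 84.7% for H3, 76.7% for H2B, 62.6% for H4 and 10.95% for H1. Rows of a type are therefore not independent measurements. The part of read sharing in the likeness of folds was not tested.

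Of these 63 members, 17 had fewer than 50% of their windows in another member, and 14 of these 17 were at least 2-fold higher. Hist4h4 shared no window and was 6.91-fold higher. Hist2h4 shared 6.08% and was 6.73-fold higher, close to the 6.08-fold of the H4 sum. Among H2B rows with no shared window, Hist2h2bb and Hist3h2ba were 6.62-fold and 6.67-fold higher, while Hist2h2be was 2.30-fold higher. The H2A rows with few shared windows were Hist1h2aa, Hist2h2ab and Hist3h2a, at 1.19-fold, 1.61-fold and 2.81-fold. The H4 rows thus stood above these H2A rows, while the H2B row Hist2h2be stood below Hist3h2a. Every H3 row shared at least 66.3% of its windows, so H3 had no such row.

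**Figure D4:**
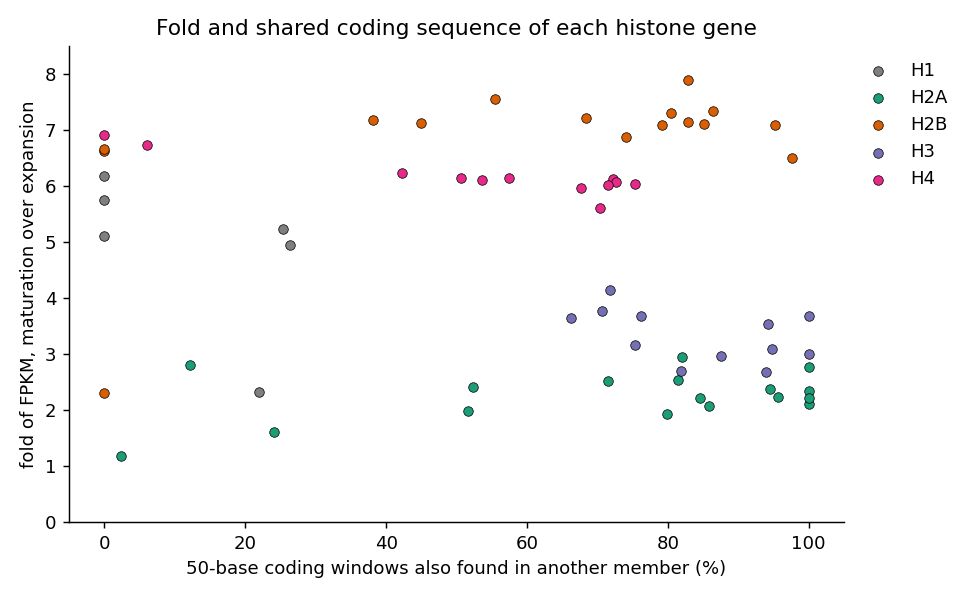
Fold of FPKM (maturation over expansion) of 63 histone genes against the share of their 50-base coding windows that occur in another member, coloured by type. At 0% shared, Hist4h4 (6.91-fold) and 2 H2B genes (6.62-fold and 6.67-fold) lie near the rest of their types, and Hist2h2be (2.30-fold) does not.

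The listed loci differed in extent. The locus of 31 rows was exactly the coding length, with no untranslated part, and 7 rows had a locus that overlaps another member. Hist1h2af, Hist1h2bh, Hist1h3f, Hist1h3g and Hist1h4h were listed under a single locus of 27733 bases, and Hist1h1e and Hist1h2be under a locus of 38889 bases. Such a shared locus does not give a transcript length, as the GENCODE transcript of Hist1h2af has 399 bases. Rows are called long here by their locus, and an effect of transcript length was not tested. The rows with the smallest log2 ratio of H1 and H2B, Hist1h1c and Hist2h2be, had loci of 1561 and 2618 bases. Among other rows of 900 bases or more, Hist1h2bp (1726 bases) was 7.09-fold higher, but Hist1h2af and Hist1h2al (5871 bases) were 1.93-fold and 1.90-fold higher. The largest plain folds of H2A, H2B and H3 also belonged to such rows, Hist1h2ac at 2.95, Hist1h2be at 7.89 and Hist1h3g at 4.15. The long rows had median log2 ratios of 1.74 for 4 H1, 1.07 for 4 H2A, 2.63 for 5 H2B and 1.84 for 3 H3 rows. The 1 long H4 row, Hist1h4h, was at 2.58. With the 17 rows of 900 bases or more left out, the medians were 2.36 for H1, 1.15 for H2A, 2.78 for H2B, 1.62 for H3 and 2.60 for H4. The order of H2B, H4, H1, H3 and H2A was the same as over all rows. With a pseudocount of 5 over all rows, H1 at 1.13 stood below H3 at 1.62.

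Related genes were read from lists of genes that make, process or use histones. Each of the 24 DNA replication genes stood above 0, of which 6 passed 2-fold. Their median was 0.82, below that of each histone type over all its rows. Over the H2A rows with under 50% of their windows in another member, the median was lower, at 0.67. Ccne1, which encodes cyclin E1, had 12.2 FPKM in maturation and 2.60 in expansion, Rrm2, a subunit of ribonucleotide reductase, had 88.97 and 25.5 FPKM, and Ccna2, which encodes cyclin A2, had 41.6 and 16.1 FPKM. Pcna, the sliding clamp of the replication fork, had 138 FPKM in maturation and 75.6 in expansion. The histone median was thus larger than that of the replication genes, though their ranges overlapped.

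Of 23 genes of histone transcription and mRNA 3′ end formation or decay, 20 reached 1 FPKM. Among these 20, 3 were at least 2-fold higher and none was lower, beside 3.13% and 6.7% of all 9263 expressed rows. The list median was -0.20, close to the -0.25 of all expressed rows, above which 14 of the 20 genes lay. The 3 higher genes were E2f2, an S phase transcription factor, at 11.96 FPKM in maturation and 3.04 in expansion (log2 ratio 1.68), Slbp at 34.8 and 14.8 FPKM (1.18), and E2f1 at 9.18 and 4.01 FPKM (1.02). Npat, the coactivator of histone gene transcription, had 1.82 FPKM in maturation and 1.61 in expansion. The row of the U7 small nuclear RNA, Rnu7, had 0.126 FPKM in maturation and 0.119 in expansion. Both values are under 1 FPKM, so they do not show whether U7 RNA differed between the groups.

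Histone chaperones and replacement variants did not share the size of the difference. Of 15 chaperones none was at least 2-fold higher and 1 was lower, beside 3.13% and 6.7% of all 9263 expressed rows. These counts are near those shares and do not set the chaperones apart. The chaperone median log2 ratio was 0.10, against -0.25 over all expressed rows. The lower gene was Ipo4, an importin that carries histones, at 1.77 FPKM in maturation and 5.49 in expansion. The largest positive ratios belonged to Chaf1b and Asf1a, which act in replication-coupled nucleosome assembly, at 0.71 and 0.70. Of the 8 replacement variants that reached 1 FPKM, none was at least 2-fold higher and 1 was lower, with a median log2 ratio of 0.01. The lower row was H2afy, which encodes macroH2A1, at 3.43 FPKM in maturation and 16.3 in expansion. H3f3a, an H3.3 gene, had 174 FPKM in maturation and 112 in expansion, and Cenpa, the centromeric H3 gene, had 17.0 and 12.1 FPKM. H2afz had 118 FPKM in maturation and 133 in expansion.

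Most rows in a list of RNAs without a poly(A) tail were also higher. Small RNA rows outside this list were not counted here. The list held small nuclear and nucleolar, 7SK, RNase P, RNase MRP and 5S RNAs. Of its 18 rows that reached 1 FPKM, 16 were at least 2-fold higher and 1 was lower, with a median log2 ratio of 1.86. Over all 9263 expressed rows 3.13% were higher and 6.7% lower, with a median of -0.25. The summed FPKM of all 21 rows of the list was 19982 in maturation and 5377 in expansion. Of the 21, 2 rows in maturation and 3 in expansion were listed at 0. Rnu3b1, a U3 small nucleolar RNA row, had 2222 FPKM in maturation and 375 in expansion. Rnu3b2 and Rnu3b3 had the same expansion value, so these rows may not be separate measurements. The lower row, Rnu73b, had 4.03 FPKM in maturation and 17.4 in expansion. The part of the listed RNAs in the histone difference was not tested, and the labels name total RNA without saying whether poly(A) RNA was selected.

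**Figure D5:**
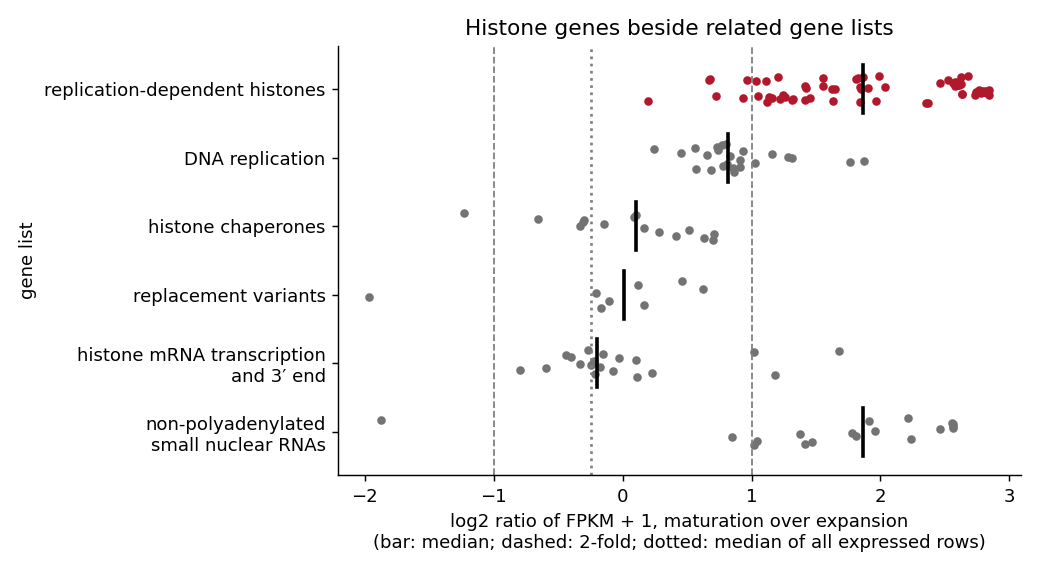
Log2 ratio of FPKM + 1 (maturation over expansion) of the 65 histone gene rows (red) and of expressed members of 5 other gene lists (grey), with list medians as bars, 2-fold as dashed lines and the median of all expressed rows as a dotted line. The histone median of 1.86 lies near that of the listed RNAs without a poly(A) tail (1.86), and the DNA replication median is 0.82.

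The cells carried erythroid genes in both groups, but not every marker reached 1 FPKM in expansion. Slc4a1 had 18.0 FPKM in maturation and 0.074 in expansion, and Alas2 had 7.89 and 0.975 FPKM. Of 9 erythroid markers 7 were at least 2-fold higher and none was lower, beside 3.13% and 6.7% of all expressed rows. The summed FPKM of the 9 markers, mostly globin, was 13326 in maturation and 3085 in expansion. Markers of other cell types summed to 0.595 FPKM in maturation and 1.33 in expansion for 3 macrophage genes, to 0.483 and 11.8 FPKM for 5 mast cell genes, and to 2.29 and 22.0 FPKM for 5 megakaryocyte genes, with Cpa3 and Pf4 listed at 0 in maturation. The 3 granulocyte and 3 lymphocyte markers each summed to under 1 FPKM in either group. The part of these markers in the histone difference was not tested.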

How the data were processed

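Total RNA was extracted with the Qiagen kit and sequenced from Nextflex libraries, per the labels' protocols. The deposited table holds FPKM values made by the authors, with 1 column for each group, per the file headers. The submitters' processing notes name Cuffdiff 2.0.2 and mm9. The aligner, annotation, read length, strandedness and pooling of the duplicates are not given by the labels or headers. The depth is unknown, so no interval or detection limit is given.

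Ratios are log2 of FPKM + 1, maturation over expansion, and folds are ratios of FPKM. Rows at 1 FPKM or more in a group counted as expressed, and log2 ratios from 1 upward or from -1 downward as 2-fold. With 1 value per group no test was run. Locus starts were read as counted from 0, since end minus start equals the coding length in 31 members, and are printed counted from 1. All 65 symbols matched a RefSeq gene, and GENCODE M21 gave strands, the lowest-numbered coding transcript and coding sequences; both describe GRCm38 and were used with no mm9 coordinate. Shared windows are exact matches among members only. Genes named per type are the highest in maturation, the 2 largest and 2 smallest log2 ratios, and those nearest to 2-fold. From other lists they are the 3 largest absolute ratios, and further genes were chosen after their values were seen. Members and lists were chosen with earlier results of these data known. Counting and medians were checked on simulated data. Python 3.11.15, pandas 2.3.3, numpy 2.4.6 and matplotlib 3.10.9 were used.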

Additional observations from a re-analysis of the deposited data

How the results depend on the processing

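Values were recomputed under the settings that apply to them, of 10 in all and not each value under each. Of the 201 recomputed values, 186 kept their direction and their side of 2-fold or, for counts, stayed within 1.5 times. The histone counts of 59 higher and 0 lower kept within that bound under each planned setting. With the 17 rows that share under 50% of their windows the count was 14 higher, because fewer rows were counted, and the H2A median was 0.67. With a pseudocount of 5 the Hist3 median was 0.88, the DNA replication count 3, the chaperone count lower 0, and the background counts 166 higher and 148 lower. The H1 median of 1.13 then lay below the H3 median of 1.62. With a pseudocount of 0.1 the H2B gene stood above in 10 of 10 pairs. The background count lower was 1303 with a pseudocount of 0.1 and 349 with a minimum of 5 FPKM. Centred on the median of all expressed rows it was 363, and the DNA replication list had 16 higher and a median of 1.07, the chaperones 0 lower and the list of histone transcription and 3′ end genes a median of 0.051, above 0. Without a filter the median of replacement variants was -0.0014. The causes were not tested. Settings that left out the 7 rows with overlapping loci, the 17 long rows, or the 5 testis and pseudogene rows, chosen in the last 2 cases and for shared windows after seeing the data, left each type median on its side of 2-fold. Summing rows with identical proteins was not run, because no protein table was used here. No paired analysis was possible because the table holds 1 value per group, which also leaves no replicate to leave out. Depth is unknown, and low rows such as Hist2h2be and Hist3h2ba are the least certain.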
